A study of Mus musculus with 2 samples.

Results

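The heat shock proteins and chaperones described here are 10 genes of the 31053 in the count tables. They were taken by gene symbol: Hspa1a, Hspa1b, Hspa8, Hspa5, Hsp90aa1, Hsp90ab1, Hsph1, Dnajb1, Hspb1 and Hspe1. Single-cell RNA sequencing of mouse brain gave their levels in 2 pooled samples, 1 in each group. Total brain was unsorted, came from male and female mice of 2 and 24 months, and pooled WT and STING-KO animals; the age label of the older mice reads 240 months. Sorted brain had passed fluorescence-activated cell sorting, came from male mice of 3 and 12 months, and pooled WT and STING-KO animals as well. STING is the adaptor protein that relays the sensing of DNA in the cytosol, and STING-KO mice lack it. Both samples shared an enzymatic digestion at 37 C, a 70 µm strainer, debris removal and red cell lysis, with 2 mice grouped per genotype and age. The sources used here state neither the gate of the sort nor the strain nor how the knockout was made.

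After filtering, 9367 cells of total brain held 33498788 unique molecular identifiers (UMIs, counted molecules), with a median of 1692 per cell, and 10076 cells of sorted brain held 31220601, with a median of 2293.5. Each table pools 4 barcode suffixes, which no source used here ties to an age or a genotype; they are given as ranges and are not replicates. With 1 sample per group no test between the samples was possible, and sort, ages, sexes and the software version of the headers differ together, so that their parts cannot be told apart. The labels name the same library chemistry for both samples, while the protocol names chips of 2 chemistries. Levels are CPM, a gene's UMIs over all UMIs of its cell class on the usual fixed scale; the 95% intervals in brackets reflect counting error alone. Kept barcodes of different suffixes shared 8 sequences in total brain and 46 in sorted brain, and 0 were shared between the samples. Cells were grouped without the chaperone genes and named from marker lists, which gave 8 classes of at least 50 cells in total brain and 9 in sorted brain. Every order of levels is over these named classes. Clusters that could not be named, and named classes of fewer than 50 cells, stay outside it. Microglia-like cells carried all 10 microglial markers in both samples, at a summed 25024 CPM in total brain and 37418 CPM in sorted brain.

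Chaperones bind unfolded or partly folded proteins and help them fold, move or be degraded. Hsp70 proteins hold short stretches of a client in a cycle driven by ATP; J-domain proteins such as Dnajb1 start that cycle and nucleotide exchange factors such as Hsph1 end it, while Hsp90 proteins finish the folding of kinases and receptors. When unfolded protein builds up in the cytosol, heat shock factor Hsf1 becomes active and binds heat shock elements, inverted repeats of GAA, in the promoters of genes such as Hspa1a, Hspa1b, Dnajb1 and Hspb1. In the endoplasmic reticulum the Hsp70 protein BiP, made from Hspa5, is raised by the separate unfolded protein response. In brain tissue, enzymatic dissociation at warm temperature is known to switch on stress and immediate early genes in microglia and other cells.

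The promoters of the inducible genes are shown because Hspa1a and Hspa1b differed between the samples although their upstream sequence is nearly the same. Each run is the 250 bases before the RefSeq start site, on the strand of the gene and in GRCm38.p6, with matches to GAANNTTC, TTCNNGAA in capitals, which also cover the 3-unit motif of GAA and TTC in turn with 2 bases between the units. The windows are chr17:34972157-34972406 (minus strand) for Hspa1a, chr17:34959239-34959488 (minus strand) for Hspa1b, chr5:135887669-135887918 (plus strand) for Hspb1 and chr1:55087898-55088147 (plus strand) for Hspe1.
Hspa1a: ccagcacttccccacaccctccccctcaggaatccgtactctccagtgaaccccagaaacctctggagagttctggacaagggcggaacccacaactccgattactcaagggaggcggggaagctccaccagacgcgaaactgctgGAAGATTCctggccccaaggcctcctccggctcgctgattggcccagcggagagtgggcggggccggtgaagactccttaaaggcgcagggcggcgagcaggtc
Hspa1b: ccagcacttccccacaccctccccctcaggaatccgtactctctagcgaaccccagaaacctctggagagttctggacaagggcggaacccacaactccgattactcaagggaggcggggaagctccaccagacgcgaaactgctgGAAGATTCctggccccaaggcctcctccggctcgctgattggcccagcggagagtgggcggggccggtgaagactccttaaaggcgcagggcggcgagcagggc
Hspb1: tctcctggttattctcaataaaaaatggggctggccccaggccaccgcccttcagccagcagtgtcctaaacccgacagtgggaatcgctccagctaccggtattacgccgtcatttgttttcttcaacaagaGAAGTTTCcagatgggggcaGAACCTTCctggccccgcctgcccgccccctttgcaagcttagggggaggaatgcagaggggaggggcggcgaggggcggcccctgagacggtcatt
Hspe1: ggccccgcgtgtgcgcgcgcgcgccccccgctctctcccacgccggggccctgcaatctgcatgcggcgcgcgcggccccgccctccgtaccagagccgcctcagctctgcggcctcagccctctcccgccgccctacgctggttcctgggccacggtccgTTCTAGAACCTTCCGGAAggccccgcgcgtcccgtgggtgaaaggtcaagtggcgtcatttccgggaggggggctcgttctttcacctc
The upstream runs of Hspa1a and Hspa1b were identical at 247 of 250 positions without gaps (98.8%), and both hold GAAGATTC starting 104 bases before the start site. Hspb1 holds 2 matches of GAANNTTC, at 117 and 97 bases before its start. Hspe1, which encodes the lid of the mitochondrial chaperonin and shares its promoter region with Hspd1 on the other strand, holds overlapping matches of the 3-unit motif at 89 and 84 bases before its start. Promoters of 300 bases (250 before and 50 after the start) were held for 7 of the 10 members, in 9 windows, and 5 of those genes hold a 2-unit and 2 a 3-unit match on either strand; the 3-unit motif contains the 2-unit ones. Among 32851 promoters of the same length, 7.86% hold GAANNTTC, 8.52% hold TTCNNGAA and 0.603% hold the 3-unit motif. The windows of Dnajb1 hold none of these motifs, which says only that these letters are not in those windows. Hspa5 holds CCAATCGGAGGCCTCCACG, a match of the endoplasmic reticulum stress element (CCAAT, 9 bases of any kind, CCACG), starting 65 bases before its start, and 0.119% of the promoters hold that motif. A match is a description of sequence and not a bound site.

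Hspa1a and Hspa1b encode the stress-inducible Hsp70 and lie 9951 bases apart on the minus strand of chromosome 17, at chr17:34969190-34972156 and chr17:34956436-34959238 in GRCm38. Their transcripts share 1716 stretches of 50 bases, 58.8% of those in Hspa1a and 62.3% of those in Hspa1b, but the last 500 bases, where 3' libraries take most reads, share 0 of 451 with any other annotated gene. Since reads from the shared stretches could be split or dropped in counting, the sum of both genes is given first. In total brain the summed level was 3501 CPM (3437–3567) in microglia-like cells, with suffixes 1 to 4 at 2416, 3149.5, 3603 and 4520 CPM. In total brain endothelial-like cells it was 2526 CPM (2487–2565), with suffixes at 4007, 3437, 2000.2 and 2582 CPM. These were the highest classes and their suffix ranges overlapped each other. Over suffixes with at least 30 cells, neither overlapped the classes below. Oligodendrocyte precursor-like cells followed at 492.5 CPM, but suffix 1 set that value, and without it the level was 194 CPM. The 23 cells of that suffix held 1542 CPM of Hspa1a and 1060 CPM of Hspa1b, which together lie within the ranges of both higher classes. All 64 of their Hspa1a UMIs came from 1 cell. The other classes of total brain held 360.3 CPM in oligodendrocyte-like, 156 CPM in astrocyte-like, 109 CPM in fibroblast-like, 75.5 CPM in neuron-like and 25.7 CPM in choroid plexus epithelial-like cells.

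In sorted brain the summed level was 1942 CPM (1913–1970.0) in microglia-like cells, with suffixes 1 to 4 at 2727, 753, 3474 and 1449.9 CPM. Border macrophage-like cells, named for the macrophages of meninges and vessels, lay at 1848 CPM (1773–1925), with suffixes at 1719, 978, 3384 and 1346 CPM. Their cluster was led by the border macrophage markers Pf4, Ms4a7 and Mrc1. Beside these stood the class II antigen presentation genes H2-Eb1, H2-Ab1, H2-Aa and Cd74 and the dendritic cell marker Cd209a. In that cluster 57% of the monocyte and 43% of the dendritic cell markers were raised too. Monocytes and dendritic cells in it thus cannot be told apart. The suffixes of microglia-like and border macrophage-like cells followed the same order, and their ranges overlapped. In the monocyte-like cluster, led by Prss34 and Mcpt8 beside Plac8 and Lyz2, 57% of the mast cell or basophil markers were raised too. Such cells among the monocyte-like cells cannot be told apart. Monocyte-like cells held 947 CPM, endothelial-like cells 906 CPM, B cell-like cells 624 CPM, NK cell-like cells 547 CPM, T cell-like cells 439 CPM, oligodendrocyte-like cells 206 CPM and choroid plexus epithelial-like cells 54.9 CPM. No neighbouring pair in that order had suffix ranges apart. Across classes the highest level stood 136-fold over the lowest in total brain and 35.4-fold over it in sorted brain, and choroid plexus epithelial-like cells were the lowest class in both.

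**Figure D1:**
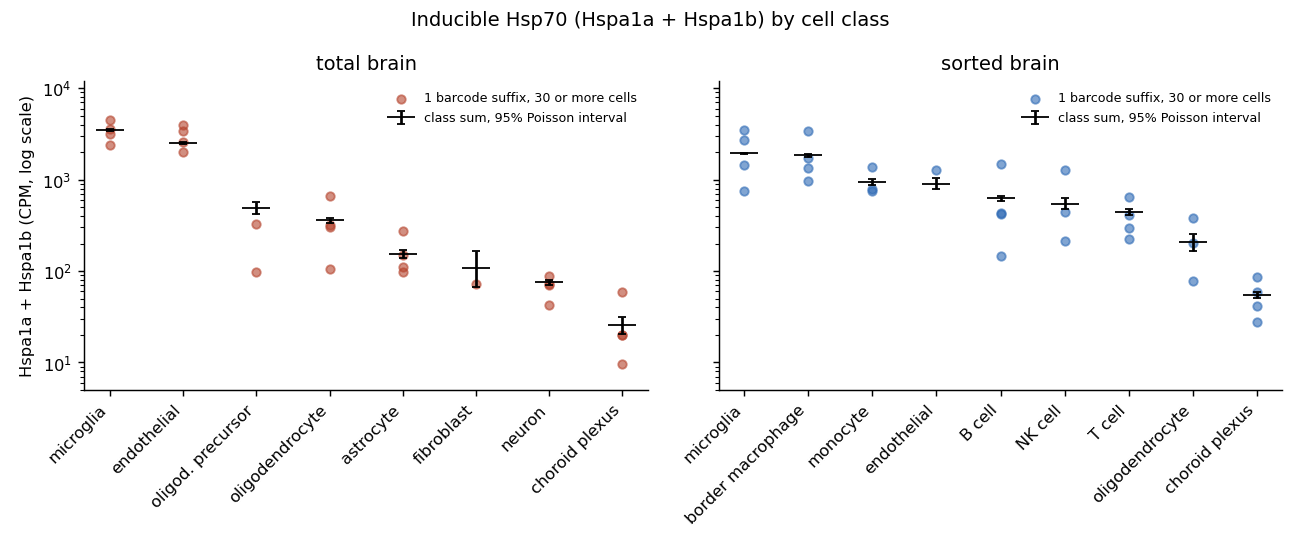
Summed Hspa1a and Hspa1b level (CPM, log axis) in each cell class of total brain (left) and sorted brain (right); black marks are class values with 95% Poisson intervals and coloured points are barcode suffixes with at least 30 cells. Microglia-like cells head both panels at 3501 and 1942 CPM, and choroid plexus epithelial-like cells close both at 25.7 and 54.9 CPM; the oligodendrocyte precursor value lies above its plotted suffixes because suffix 1, with fewer than 30 cells, is not plotted.

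The inducible Hsp70 was unevenly spread over cells. At least 1 UMI of either gene was seen in 58.7% of microglia-like cells of total brain (median 4422 UMIs per cell) and 53.7% of those of sorted brain (median 2029), or 48.4% and 44.9% with each cell thinned to 1000 UMIs. The shares in choroid plexus epithelial-like cells, the class with the lowest level, were 14.4% in total brain (median 5654.5 UMIs) and 14.1% in sorted brain (median 4190.0), or 1.54% and 4.03% after thinning, which left out 23 of 348 such cells in total brain. The microglial shares stood above those of the choroid plexus at matched depth in both samples. Cells with 10 or more UMIs made up 35.5% of total brain microglia-like cells and held 95.8% of the UMIs of the pair, while 41.3% of the cells had none and the highest had 222. In sorted brain such cells made up 15.4% of microglia-like cells and held 68.8% of the UMIs. In endothelial-like cells, cells with 10 or more UMIs were 32.0% of the class in total brain and held 97.3% of its UMIs, against 1.64% of the class and 9.78% of its UMIs in sorted brain. Depth differed beside this, with a median of 4697 UMIs per endothelial-like cell in total brain and 1307 in sorted brain, and its part was not tested.

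Within microglia-like cells the level went with the cluster. In total brain, cluster 15 held 73.7% of the class at 3906 CPM, and cluster 3 held 22.9% at 177 CPM. Cluster 15 had a median of 6609.5 UMIs per cell and 26679.5 CPM of immediate early genes summed, against 1733 UMIs and 1292 CPM in cluster 3. In sorted brain, clusters 2, 3 and 5 held 38.0%, 34.2% and 27.7% of the class at 2379, 1116 and 2239 CPM, with immediate early sums of 27337, 4161 and 11232 CPM. Cluster 3 was thus the lowest of the main microglial clusters in both samples, for the heat shock pair and for the immediate early sum. Cluster 5 was led by Tpsb2, and 57% of the mast cell or basophil markers were raised in it beside the microglial ones. Such cells in cluster 5 cannot be told apart. Immediate early genes were among the genes that shaped the clusters, while the chaperones were left out of the clustering. Hspa1b and Jund stand among the 10 leading genes of cluster 15. That cluster held 428 cells of total brain and 3 of sorted brain, and both genes were higher in total brain in other classes too. Their lead thus cannot be told apart from the difference between the samples.

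The split between the 2 genes differed between the samples in the named classes. Hspa1b gave 48.6% (48.0–49.1) of the UMIs of the pair over all kept cells of total brain and 8.42% (8.08–8.77) of those of sorted brain. Class values ran from 41.2% to 53.3% in total brain (median 44.5%, 8 classes) and from 7.40% to 14.8% in sorted brain (median 9.10%, 9 classes). Units of these classes and suffixes were taken with at least 30 cells and at least 30 UMIs. Their range was 29.2% to 62.2% in total brain (21 units) and 6.0% to 23.4% in sorted brain (28 units). No such unit of one sample lay within the range of the other. A smaller unit did: the 11 border macrophage-like cells in suffix 3 of total brain held 23 UMIs of Hspa1a and 7 of Hspa1b. The 11 in suffix 4 held 38 and 1, below both ranges. Barcodes removed by the filters showed the same split, with 46.5% in total brain and 13.5% in sorted brain. In microglia-like cells the shares of suffixes 1 to 4 were 51.4%, 49.9%, 54.7% and 54.4% in total brain, and 7.74%, 13.2%, 6.03% and 7.01% in sorted brain. An unnamed cluster of total brain led by Kit and Tfap2b (185 cells) went against this, with 187 CPM of Hspa1a and 26.7 CPM of Hspa1b. That split lay within the range of sorted brain but rests on few UMIs. Small named classes of total brain also fell outside its class range. Border macrophage-like cells held 130 UMIs of Hspa1a and 73 of Hspa1b, erythroid-like cells 22 and 4, and monocyte-like cells 11 and 6, all below it. B cell-like cells held 3 and 7, above it, and T cell-like cells 2 and 3. Chemistry, reference annotation and counting version could not be separated from sort, age and sex here, and the part of each was not tested.

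**Figure D2:**
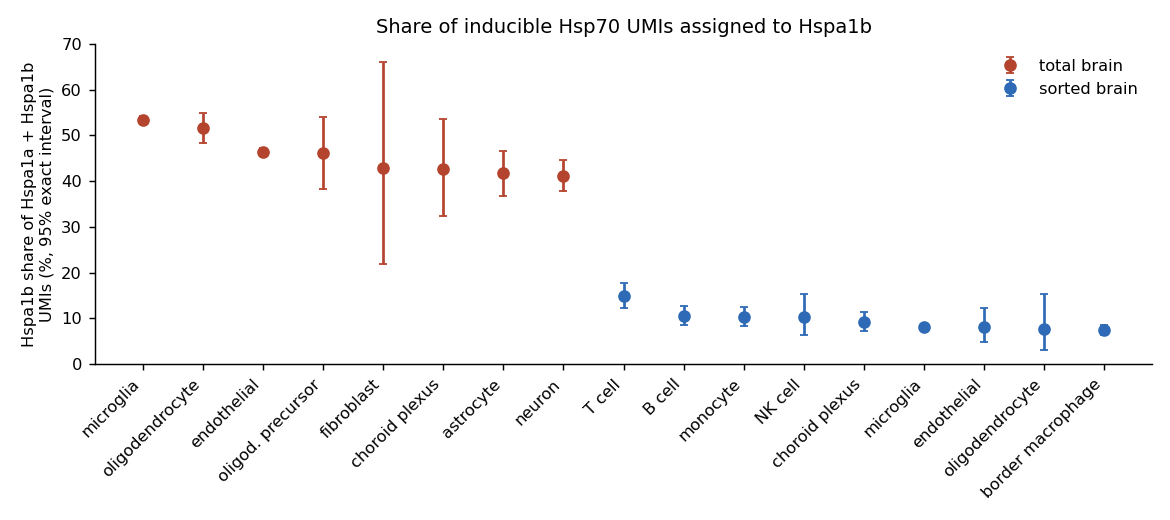
Share of Hspa1a plus Hspa1b UMIs assigned to Hspa1b (percent, linear axis from 0) in each cell class of total brain and sorted brain, with 95% Clopper-Pearson intervals. Total brain classes lie between 41.2% and 53.3% and sorted brain classes between 7.40% and 14.8%.

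Dnajb1, the J-domain partner of the cytosolic Hsp70 proteins (chr8:83608193-83612653, plus strand), was highest in microglia-like cells of total brain and border macrophage-like cells of sorted brain. In total brain it reached 239.5 CPM in microglia-like cells, with suffixes 1 to 4 at 229, 305, 245 and 203 CPM, and was lowest in neuron-like cells at 27.3 CPM. The 33 border macrophage-like cells of total brain, too few to be ranked, held 94.2 CPM of Dnajb1. In sorted brain Dnajb1 reached 339.5 CPM in border macrophage-like cells and 243 CPM in the NK cell-like class. It was 228 CPM in microglia-like cells, whose suffixes lay at 248, 146, 450.01 and 200.3 CPM, and was lowest in choroid plexus epithelial-like cells at 50.3 CPM. The ranges of the 3 highest sorted classes overlapped. Hsph1, a nucleotide exchange factor of the Hsp110 family (chr5:149614287-149636376, minus strand), had another order. It was highest in neuron-like cells of total brain at 142.5 CPM, with suffixes from 131 to 156 CPM, and lowest there in microglia-like cells at 50.9 CPM. Neuron-like, oligodendrocyte precursor-like and oligodendrocyte-like cells followed each other with overlapping suffix ranges. In sorted brain, which held 4 neuron-like cells, Hsph1 spanned 12.9 CPM in border macrophage-like to 47.5 CPM in oligodendrocyte-like cells, and 1 of 8 neighbouring pairs had ranges apart.

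Hspa8, the constitutive Hsp70 of the cytosol that also uncoats clathrin vesicles (chr9:40800984-40810087, plus strand), was present in all classes. In total brain it stood at 1482 CPM in choroid plexus epithelial-like cells, 1452 CPM in oligodendrocyte-like cells, 1413 CPM in microglia-like cells and 1299.6 CPM in endothelial-like cells, with overlapping suffix ranges, and at 257 CPM in neuron-like cells. Of the ranked classes of sorted brain, monocyte-like cells, whose cluster also had mast cell or basophil markers raised, had the highest level at 2761 CPM. Endothelial-like cells had the lowest at 1273 CPM, a span of 2.17-fold in which no neighbours had ranges apart. Outside that span lay 2 classes too small to be ranked, the 33 neuroblast-like cells at 3327 CPM and the 31 erythroid-like cells at 555 CPM. So did 4 neuron-like, 2 oligodendrocyte precursor-like and 12 fibroblast-like cells of sorted brain. Part of its 3' end is shared with other annotated genes: 40.4% of the 50-base stretches in the last 500 bases also occur in other annotated genes, none of which is in the count tables. Hspa5 (chr2:34771970-34777547, plus strand) was highest, among named classes, in microglia-like cells of both samples, at 751 CPM in total brain and 788 CPM in sorted brain. An unnamed cluster led by Mgp and Igfbp6 lay above them at 867 CPM in total brain and 1143 CPM in sorted brain. Choroid plexus epithelial-like cells, which secrete cerebrospinal fluid proteins, followed at 633 CPM and 673 CPM with overlapping ranges. The lowest classes for Hspa5 were neuron-like cells of total brain at 110.0 CPM and T cell-like cells of sorted brain at 279 CPM. Ribosomal protein genes took 37.5% of the UMIs of T cell-like cells, and with those and mitochondrial genes left out of the total their Hspa5 level was 464 CPM, so that their place in the order depends on that choice.

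Among named classes of at least 50 cells both cytosolic Hsp90 genes were highest in oligodendrocyte-like cells. Hsp90aa1, the more inducible form (chr12:110690605-110702728, minus strand), stood at 2023 CPM there in total brain, with suffixes from 1917 to 2141 CPM, and at 1686 CPM in sorted brain, with suffixes from 1454 to 1974 CPM. The next class in both samples was choroid plexus epithelial-like, at 1319 CPM in total brain and 684 CPM in sorted brain, and its suffix range did not reach that of the oligodendrocyte-like cells. All 501 unnamed cells of total brain held, as 1 group, 2027 CPM of Hsp90aa1, with suffixes from 1522 to 3251 CPM. Most of these cells lay far lower. The unnamed clusters led by Rgs5, Kit and Mgp (228, 185 and 46 cells) held 607, 468 and 779 CPM. The group value thus rests on the remaining unnamed cells, in clusters led by S100a8 (25 cells) and Pcp2 (17 cells). In the group 1 cell held 730 of the 5986 UMIs. Hsp90ab1, the constitutive form (chr17:45567775-45573271, minus strand), stood at 1908 CPM in oligodendrocyte-like cells of total brain and 1603 CPM in those of sorted brain. Its suffix range there was apart from the next class in sorted brain and overlapped endothelial-like cells in total brain. The total brain value rests on one cluster of deep cells: cluster 17 (117 cells, median 13749 UMIs) held 2479 CPM of Hsp90aa1 and 2436 CPM of Hsp90ab1, and cluster 12 (496 cells, median 979 UMIs) held 787 CPM and 474 CPM. With the stricter cell filter (1000 genes, 5% mitochondrial UMIs) the class held 729 CPM of Hsp90aa1 and 613 CPM of Hsp90ab1. All 149 oligodendrocyte-like cells of sorted brain were in cluster 17. Above them lay the 33 neuroblast-like cells of sorted brain, too few to be ranked. Those held 2078 CPM of Hsp90aa1 and 1697 CPM of Hsp90ab1.

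Hspb1, the small heat shock protein Hsp25 (chr5:135887919-135889563, plus strand), was highest in the cells that line blood vessels. Its level was 1587 CPM (1556–1619) in endothelial-like cells of total brain, with suffixes 1 to 4 at 2596, 2704, 1229 and 1492 CPM, and 1772 CPM (1611–1946) in those of sorted brain, where suffix 4, the only one with at least 30 cells, lay at 2173 CPM. The next named class was choroid plexus epithelial-like at 109 CPM in total brain and 88.9 CPM in sorted brain, well apart from the endothelial-like range. Across classes the span was 277-fold in total brain and 392-fold in sorted brain. At least 1 UMI was seen in 74.6% of endothelial-like cells of total brain and 81.1% of those of sorted brain, against 2.12% and 1.34% of oligodendrocyte-like cells, the lowest class. The low oligodendrocyte-like level of total brain, 5.73 CPM, was between 21.2 and 28.7 CPM under 4 other settings of filter and clustering. Hspe1 (chr1:55088132-55091307, plus strand) was highest in choroid plexus epithelial-like cells of total brain at 547 CPM and in T cell-like cells of sorted brain at 525 CPM, each with a suffix range apart from the next class. It was lowest in neuron-like cells of total brain at 31.3 CPM, a span of 17.5-fold.

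**Figure D3:**
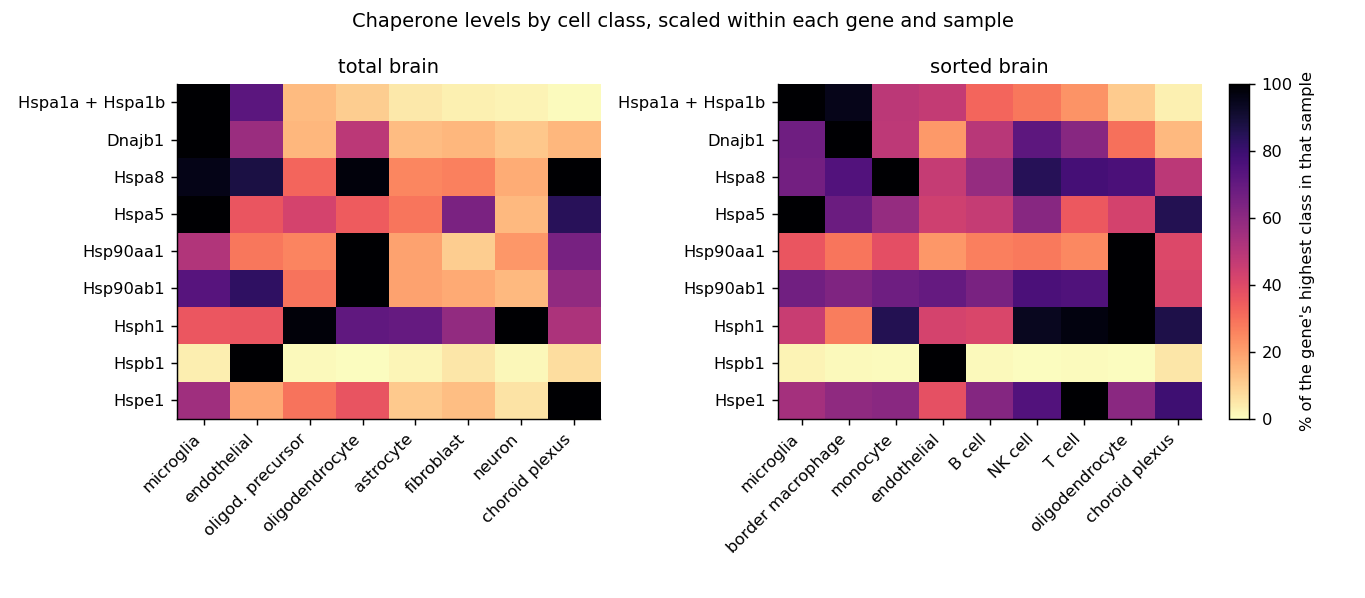
Level of each chaperone gene by cell class, as a percentage of the gene's own highest class in the same sample, for total brain (left) and sorted brain (right); Hspa1a and Hspa1b are shown as their sum. Dark squares mark the highest named class of at least 50 cells for each gene: endothelial-like cells for Hspb1 and oligodendrocyte-like cells for both Hsp90 genes in both samples, and neuron-like cells for Hsph1 in total brain.

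Neuron-like cells were low for nearly all of these genes in CPM. Against all other kept cells of total brain, 9 of the 10 genes were at least 2-fold lower in the 5425 neuron-like cells and 0 were 2-fold higher, where 31.7% of 12186 tested genes were higher and 25.9% lower. Hsph1 was the gene that did not differ 2-fold. In astrocyte-like cells 8 were 2-fold lower and 0 higher, where 10.7% of tested genes were higher and 14.3% lower. Ribosomal protein genes took 1.52% of the UMIs of neuron-like and 1.53% of astrocyte-like cells, against 10.3% in microglia-like cells, so that other abundant housekeeping transcripts were low in the same classes, and their part was not tested. In microglia-like cells 4 of the 10 genes were at least 2-fold higher than in the other cells of total brain (background 12.3%), namely Hspa1a, Hspa1b, Hspa5 and Dnajb1, and 2 were lower, namely Hsph1 and Hspb1 (background 43.0%). In sorted brain 3 were higher in microglia-like cells (background 30.5%), namely Hspa1a, Hspa1b and Dnajb1, and Hspb1 was lower (background 19.6%). Border macrophage-like cells had the same 3 genes higher (background 8.87%), with Hspb1 and Hsph1 lower (background 19.3%). Endothelial-like cells of total brain had 3 genes higher (background 11.3%), namely Hspa1a, Hspa1b and Hspb1, and Hsph1 lower (background 34.8%). Oligodendrocyte-like cells there had both Hsp90 genes higher (2 genes, background 9.56%) and Hspa1a, Hspa1b and Hspb1 lower (3 genes, background 32.0%). Choroid plexus epithelial-like cells of sorted brain had 0 genes higher (background 13.2%) and Hspa1a, Hspa1b and Dnajb1 lower (3 genes, background 51.1%). T cell-like cells had 0 higher (background 14.3%) and Hspa1a, Hspa5 and Hspb1 lower (3 genes, background 27.3%), and B cell-like cells had 0 higher (background 13.6%) and Hspb1 lower (background 22.7%).

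Total brain was then set beside sorted brain within the 4 classes that held at least 100 cells in each. In microglia-like cells 2 of the 10 genes were at least 2-fold higher in total brain and 0 lower, where 23.4% of 8649 tested genes were higher and 2.47% lower. Hspb1 in oligodendrocyte-like cells fell under 10 CPM in both samples and was not tested, which left 9 genes there: 2 were higher and 0 lower, where 39.7% of 9515 genes were higher and 6.77% lower. In endothelial-like cells 2 of 10 were higher and 0 lower, where 31.9% of 9723 genes were higher and 11.1% lower. In choroid plexus epithelial-like cells 0 of 10 were higher and 1 lower, namely Hspa1a, where 27.8% of 7112 genes were higher and 1.76% lower. Endothelial-like cells were added to the comparison after the data were seen. The counts of higher members are thus near or below the background in each class. Counting only genes whose suffix ranges were also apart, microglia-like cells had 1 member higher and 0 lower (background 20% and 2.14%), and oligodendrocyte-like cells 2 and 0 (30.5% and 4.07%). Endothelial-like cells had 2 and 0 (29.0% and 9.92%), and choroid plexus epithelial-like cells 0 and 0 (25.5% and 1.57%). The sorted range of endothelial-like cells was 1 suffix, here and below, so that ranges apart say little for that class. Its 2 members, Hspa1b and Hsph1, rested on 18 and 5 UMIs in sorted brain. The median log2 ratio of the members was 0.24 in microglia-like, 0.34 in choroid plexus, 0.20 in oligodendrocyte-like and 0.58 in endothelial-like cells, beside 0.14, 0.50, 0.60 and 0.38 over all tested genes. Single ratios below are to be read against those shifts.

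Hspa1b accounted for the largest ratios among the members. In microglia-like cells it stood at 1867 CPM in total brain, with suffixes 1 to 4 at 1243, 1572, 1972 and 2459 CPM, and at 157.6 CPM in sorted brain, with suffixes at 211, 99.3, 209 and 102 CPM. The suffix ranges were far apart, and the ratio was 11.8-fold (11.2–12.5). In oligodendrocyte-like cells it was 186 CPM in total brain and 15.8 CPM in sorted brain, 11.7-fold (5.65–29.4), where the sorted value rests on 7 UMIs. In endothelial-like cells it was 1173 CPM in total brain and 72.5 CPM in sorted brain, 16.2-fold (10.2–27.3), where the sorted value rests on 18 UMIs. Over all alternatives run, the log2 ratio stayed between 3.19 and 3.94 in microglia-like, 2.92 and 3.76 in oligodendrocyte-like and 3.53 and 4.65 in endothelial-like cells. Since the share of Hspa1b in the pair differed between the samples in each of these classes, these ratios cannot be told apart from that split.

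Hspa1a did not follow Hspa1b. In microglia-like cells it was 1634 CPM in total brain, with suffixes 1 to 4 at 1173, 1577, 1631 and 2061 CPM, and 1784 CPM in sorted brain, with suffixes at 2515, 654, 3264 and 1348 CPM. The sorted range enclosed the whole total range, and the ratio was 0.916 (0.888–0.945). Hspa1a in choroid plexus epithelial-like cells was 14.7 CPM in total brain and 49.9 CPM in sorted brain, 0.295-fold (0.217–0.392), with suffixes of 5.83 to 28.5 CPM and 25.8 to 78.3 CPM that overlapped. In endothelial-like cells the ratio was 1.62 (1.41–1.87), and its log2 value of 0.70 was 1.08 without suffix 4 of sorted brain. For the sum of both genes the ratio was 1.80-fold (1.76–1.85) in microglia-like cells and 1.75-fold (1.41–2.20) in oligodendrocyte-like cells, with overlapping suffix ranges in both. In endothelial-like cells it was 2.79-fold (2.44–3.19), with the suffixes of total brain from 2000.2 to 4007 CPM above the 1266 CPM of the 1 sorted suffix with enough cells. In choroid plexus epithelial-like cells it was 0.467-fold (0.371–0.583), with overlapping ranges. Both choroid values lay below the level of the pair in the barcodes removed by the filters, which was 519.9 CPM in total brain and 256 CPM in sorted brain. The choroid log2 ratio of −1.07 became −1.72 without suffix 4 and −0.74 without suffix 2 of total brain, and it was −0.60 with called doublets removed. The microglial one of 0.85 became 1.31 without suffix 1 of sorted brain, and the oligodendrocyte-like log2 ratio of 0.81 became 1.44 without suffix 1 of sorted brain.

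Hsph1 was the other member at least 2-fold higher. It stood at 50.9 CPM in total brain and 21.5 CPM in sorted brain in microglia-like cells, 2.37-fold (1.91–2.92), with overlapping suffix ranges. In oligodendrocyte-like cells it stood at 101 CPM in total brain and 47.5 CPM in sorted brain, 2.13-fold (1.36–3.50), with ranges apart, and in endothelial-like cells at 51.7 CPM and 20.1 CPM, 2.56-fold (1.09–7.95), where the sorted value rests on 5 UMIs. It was 74.4 CPM in total brain and 41.2 CPM in sorted brain in choroid plexus epithelial-like cells, 1.81-fold (1.55–2.10), again with ranges apart. The direction was the same in all 4 classes, but the 2-fold mark was not held under every setting: with TMM scaling the log2 ratio was 0.84 in microglia-like and 0.78 in oligodendrocyte-like cells. It was also 0.95 in microglia-like cells without suffix 3 of total brain and 0.85 without suffix 2 of sorted brain. In oligodendrocyte-like cells it was 0.78 without suffix 3 of sorted brain, and in endothelial-like cells 0.90 without suffix 2 and 0.96 without suffix 4 of sorted brain. Within cluster 17, the one oligodendrocyte-like cluster found in both samples, Hsph1 was 84.6 CPM in total brain and 47.5 CPM in sorted brain, under 2-fold. Cluster 12, found in total brain alone, held 146 CPM.

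Both Hsp90 genes had ratios between 1 and 2 in the 4 classes. In choroid plexus epithelial-like cells Hsp90aa1 stood at 1319 CPM in total brain and 684 CPM in sorted brain, 1.93-fold (1.86–2.00), and Hsp90ab1 at 1124 CPM and 665 CPM, 1.69-fold (1.63–1.76), both with suffix ranges apart. In microglia-like cells Hsp90aa1 was 1.69-fold (1.62–1.76) with overlapping ranges, and Hsp90ab1 was 1.31-fold (1.26–1.35), with suffixes of 1308 to 1449.6 CPM in total brain above 810.2 to 1276 CPM in sorted brain. Without suffix 1 of sorted brain the log2 ratio of Hsp90aa1 in microglia-like cells passed 2-fold at 1.03, and in choroid plexus epithelial-like cells it did so at 1.02 without suffix 2 of total brain. It also passed at 1.33 in microglia-like cells with each sample clustered alone. In oligodendrocyte-like cells the ratios were 1.20 (1.11–1.30) for Hsp90aa1 and 1.19 (1.10–1.29) for Hsp90ab1, and the stricter cell filter turned their log2 values of 0.26 and 0.25 to −0.99 and −1.47. Among the constitutive Hsp70 genes, Hspa8 ran from 0.691 in oligodendrocyte-like to 1.11 in choroid plexus epithelial-like cells, and Hspa5 from 0.772 to 0.953 over the 4 classes, all with overlapping ranges. The oligodendrocyte-like log2 ratio of Hspa8, −0.53, was −2.09 with the stricter filter. Dnajb1 was 1.05-fold (0.966–1.14) in microglia-like cells, 0.723 in choroid plexus epithelial-like and 1.87 in endothelial-like cells, where its log2 ratio of 0.89 was 1.08 without suffix 3 of total brain and 1.12 and 1.04 without suffixes 3 and 4 of sorted brain. Hspe1 ran from 0.504 in endothelial-like to 1.32 in choroid plexus epithelial-like cells, and Hspb1 from 0.896 in endothelial-like to 1.40 in microglia-like cells among the 3 classes in which it was tested. One suffix set the microglial direction of Hspb1: its log2 ratio of 0.47 was −0.92 without suffix 4 of total brain. The microglial Hspe1 log2 ratio of 0.10 was −1.55 with each sample clustered alone. The endothelial Hspe1 log2 ratio of −0.98 was −1.02 without suffix 1 of total brain and −1.10 without suffix 4 of sorted brain.

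**Figure D4:**
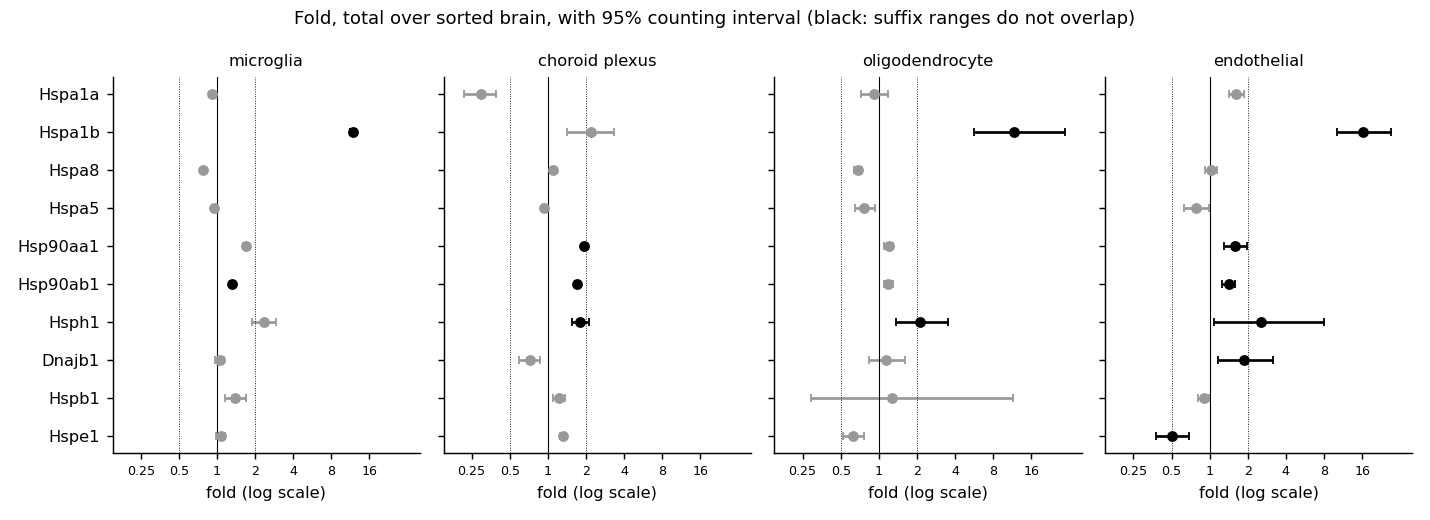
Ratio of CPM in total brain over sorted brain (log axis) for each chaperone gene in 4 cell classes, with 95% counting intervals; dotted lines mark 2-fold either way and black symbols mark genes whose suffix ranges do not overlap. Hspa1b lies at 11.8, 11.7 and 16.2 in microglia-like, oligodendrocyte-like and endothelial-like cells while most other members lie within 2-fold; in endothelial-like cells the sorted range is 1 suffix.

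The classes compared were not equal in other respects. Microglia-like cells of total brain came mostly from cluster 15 and those of sorted brain from clusters 2, 3 and 5. Choroid plexus epithelial-like cells came mostly from cluster 1 in total brain (80.2%) and from clusters 1 and 7 in sorted brain (61.6% and 38.4%), and the heat shock pair stood at 17.0 CPM in total brain and 35.4 CPM in sorted brain within cluster 1. Cluster 29, with 38 cells of total brain (10.9% of the class) and 0 of sorted brain, held 415 CPM of the pair and an immediate early sum of 2549 CPM. Choroid plexus markers, all 8 seen in the endothelial-like cells of both samples, summed to 372 CPM in those of total brain (suffixes 203 to 467) and to 70294 CPM in those of sorted brain (37631 in the suffix with enough cells). In microglia-like cells choroid plexus markers summed to 503 CPM in total brain (257.7 to 1031, 7 of 8 seen, Aqp1 at 0) and 8751 CPM in sorted brain (7115 to 11739, 8 of 8). Microglial markers in choroid plexus epithelial-like cells summed to 62.3 CPM in total brain (46.8 to 91.4, 9 of 10 seen, Sall1 at 0) and 554 CPM in sorted brain (335 to 802, 10 of 10). Monocyte markers in microglia-like cells summed to 1120 CPM in total brain (279 to 2656, 5 of 7 seen, Ly6c2 and Chil3 at 0) and 567 CPM in sorted brain (429 to 786, 7 of 7). In oligodendrocyte-like cells neuronal markers summed to 2108 CPM in total brain (1695 to 2650, 9 of 9) and 20.3 CPM in sorted brain (0 to 39.3, 3 of 9), and choroid plexus markers to 481 CPM (393 to 540, 7 of 8) and 10001 CPM (5759 to 11571, 8 of 8). The part of these in the ratios was not tested.

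The suffixes of sorted brain were ordered alike in most classes. Suffix 3 had the highest summed Hspa1a and Hspa1b level in 7 of 8 classes, oligodendrocyte-like cells being the exception, and suffix 2 the lowest in all 5 classes in which 4 suffixes held at least 30 cells. The ratio of highest to lowest suffix ran from 1.86 in monocyte-like to 10.1 in B cell-like cells, where the levels were 1493 CPM in suffix 3 and 147 CPM in suffix 2. In microglia-like cells of sorted brain 7 of the 10 genes were highest in suffix 3 and 9 were lowest in suffix 2, with spans from 1.37-fold for Hspe1 to 7.24-fold for Hspb1. Dnajb1 spanned 3.09-fold and Hsp90aa1 2.26-fold there. The share of all genes with this order is not given here, so that the counts cannot be read as particular to the chaperones. Depth differed too, with medians of 2225, 2370, 1616 and 1235 UMIs per microglia-like cell in suffixes 1 to 4. Immediate early genes did not give the same order: their sum was 13286, 14685, 23645 and 17735 CPM in suffixes 1 to 4 of sorted brain, so that suffix 2 was not the lowest. In total brain no suffix led throughout: suffix 4 was highest in 3, suffix 2 in 2 and suffix 1 in 1 of 6 classes. Suffix 1 was the lowest in 4 of these 6 classes. Spans over suffixes in total brain microglia-like cells ran from 1.11-fold for Hsp90ab1 to 15.1-fold for Hspb1, whose 138 CPM in suffix 4 stood beside 9.14 CPM in suffix 2. Without suffix 4 the class level of Hspb1 was 19.7 CPM in place of 53.4 CPM.

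**Figure D5:**
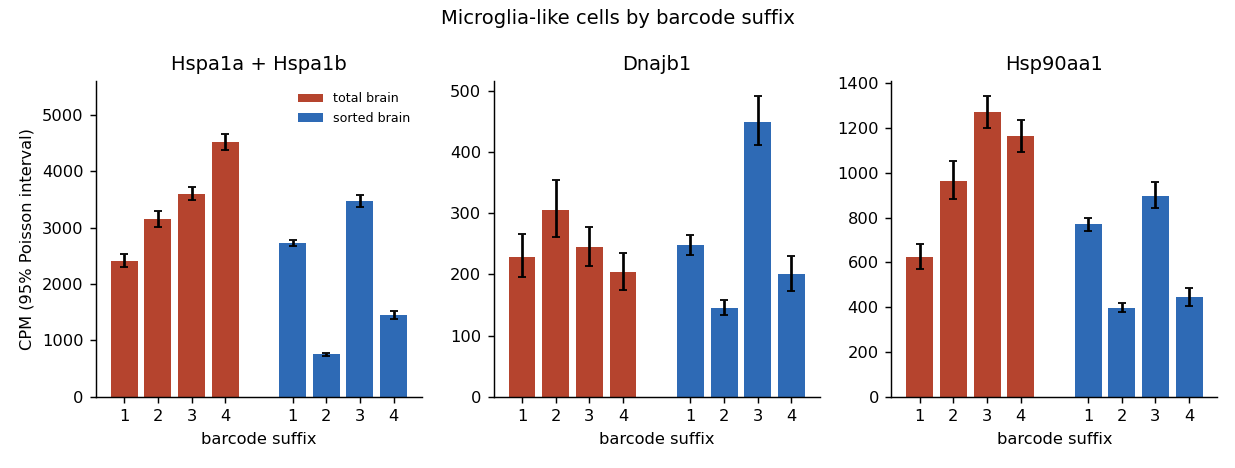
Level (CPM, linear axis from 0, 95% Poisson intervals) of the summed Hspa1a and Hspa1b, of Dnajb1 and of Hsp90aa1 in microglia-like cells of the 4 barcode suffixes of total brain (left bars) and of sorted brain (right bars). In sorted brain suffix 3 is the highest and suffix 2 the lowest for all 3, from 3474 to 753 CPM for the pair, 450.01 to 146 CPM for Dnajb1 and 898 to 398 CPM for Hsp90aa1.

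The genes most like the heat shock pair were immediate early and stress genes. Likeness is Pearson's r of log2(CPM + 10) over 57 units of class, sample and suffix, from 17 combinations of class and sample, among 3498 genes; units of a sample share library and depth, so r is a description. Jun (0.93), Fos (0.92), Nfkbia (0.90), Klf6 (0.90), Btg2 (0.90) and Dusp1 (0.90) came first. Among the members Dnajb1 was the closest at 0.79, rank 32, and Hsph1 the furthest at −0.41. The sum of the 18 immediate early genes listed had an r of 0.95 with the pair. Once the mean of each class and sample was taken away (55 units, 15 combinations), that r was 0.47, and the genes with a high r included Atf4 (0.65), a factor of the integrated stress response, Dnajb1 (0.59), Bcap31 (0.58), Hsph1 (0.57) and Mif4gd (0.57). Between members, Hspa8 went with Hspe1 (0.85) and Hsp90ab1 (0.83), and Hspa1a with Dnajb1 (0.83) across units. Within class and sample Hsp90aa1 went with Hsph1 (0.77), a pair whose r across units was 0.28, and Hspa8 with Hspa5 (0.77).

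Wider lists of the folding network were counted against the same 2-fold mark. Of 26 cytosolic heat shock response genes other than the members, 22 were tested in microglia-like cells and 3 were higher and 0 lower in total brain, with a median log2 ratio of −0.04 beside 0.14 over all genes. The counts were 3 higher and 0 lower of 24 in choroid plexus epithelial-like (median 0.58), 3 higher and 1 lower of 23 in oligodendrocyte-like (median −0.31) and 5 higher and 3 lower of 25 in endothelial-like cells (median −0.18). The shares higher were thus 13.6%, 12.5%, 13% and 20% in that order of classes, beside 23.4%, 27.8%, 39.7% and 31.9% of all tested genes, with 2.47%, 1.76%, 6.77% and 11.1% of all tested genes lower. Hspa4, an Hsp110 relative of Hsph1, was higher in all 4 classes: 100.3 CPM in total brain and 41.2 CPM in sorted brain in microglia-like cells (2.43-fold), 168 and 37.2 CPM in choroid plexus epithelial-like (4.52-fold), 89.7 and 31.6 CPM in oligodendrocyte-like (2.83-fold) and 101 and 36.3 CPM in endothelial-like cells (2.78-fold). Bag1, a nucleotide exchange factor of Hsp70, was 7.44-fold higher in microglia-like, 9.86-fold in choroid plexus epithelial-like and 3.76-fold in endothelial-like cells. Hspa4l was 3.30-fold higher in choroid plexus epithelial-like and 2.35-fold in oligodendrocyte-like cells. These are named because their suffix ranges were apart, as the rule for naming asked. Lower in total brain were Hsbp1, the heat shock factor binding protein, at 0.437 in oligodendrocyte-like and 0.487 in endothelial-like cells, and the small heat shock protein Cryab at 0.183 in endothelial-like cells.

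Endoplasmic reticulum folding genes had medians below that of all tested genes in the 4 classes. Of 20 listed, 19 were tested in microglia-like cells with 1 higher and 0 lower (median −0.37), 19 in choroid plexus epithelial-like with 0 and 1 (median −0.10), 20 in oligodendrocyte-like with 1 and 1 (median −0.33) and 20 in endothelial-like cells with 1 and 3 (median −0.09). Their shares higher were 5.26%, 0%, 5% and 5% in that order, against the same background of 23.4%, 27.8%, 39.7% and 31.9%. The background of lower genes was 2.47%, 1.76%, 6.77% and 11.1%. Named by rule were Serpinh1, the collagen chaperone, at 44.1 CPM in total brain and 93.8 CPM in sorted brain in choroid plexus epithelial-like cells, and Sdf2l1, a partner of BiP, at 0.400 in oligodendrocyte-like and 0.172 in endothelial-like cells. In endothelial-like cells Pdia4, a disulphide isomerase, stood at 0.383 and Manf at 0.414. Of 9 mitochondrial folding genes 0 were past 2-fold in microglia-like and choroid plexus epithelial-like cells, 1 was lower in oligodendrocyte-like cells (Clpp, a protease subunit, 0.454) and 1 was higher in endothelial-like cells. Of the 7 subunits of the CCT chaperonin found in the files, only Cct2 was past 2-fold, at 204 CPM in total brain and 67.9 CPM in sorted brain in choroid plexus epithelial-like cells. Of 3 heat shock factors 2 were tested in each class, with 1 higher in choroid plexus epithelial-like and 1 in oligodendrocyte-like cells and 0 lower in any of the 4 classes.

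Immediate early genes, which were listed as a readout of cell activation and handling, were counted in the same way. Of 18 tested, 5 were higher and 0 lower in microglia-like (median log2 ratio 0.65), 7 higher and 1 lower in oligodendrocyte-like (median 0.07) and 14 higher and 0 lower in endothelial-like cells (median 1.55). The shares higher were 27.8% in microglia-like and 38.9% in oligodendrocyte-like cells, near the backgrounds of 23.4% and 39.7%, and 77.8% in endothelial-like cells, where the background was 31.9%. Their summed level was 23857 CPM in total brain and 15479.5 CPM in sorted brain in microglia-like cells, and 16897 CPM and 5506 CPM in endothelial-like cells. Choroid plexus epithelial-like cells had 10 tested with 1 higher and 7 lower (median −1.47), among them Junb at 9.52 CPM in total brain and 74.5 CPM in sorted brain and Fos at 10.4 CPM and 63.6 CPM. Among all tested genes of that class 27.8% were higher and 1.76% lower. Their summed level there did not follow the median, at 459 CPM in total brain and 425 CPM in sorted brain. Jund, an AP-1 subunit, was higher in every compared class, 27.3-fold in microglia-like, 20.9-fold in choroid plexus epithelial-like, 13.9-fold in oligodendrocyte-like and 25.7-fold in endothelial-like cells. Hspa1b in choroid plexus epithelial-like cells was 11 CPM in total brain and 5.00 CPM in sorted brain, 2.19-fold (1.43–3.32), which lies just under 2-fold with 1 CPM added to each level, and the suffix ranges overlapped.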

How the data were processed

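Single-cell 3' RNA libraries of 2 pooled mouse brain samples, total brain and sorted brain (1 per group), were analysed from the UMI count matrices that the authors deposited, with cells already called. Per the submitters' processing notes the counts came from Cell Ranger 3.0.2 on mm10; the file headers name Cell Ranger 3.1.0 for total brain and 3.0.2 for sorted brain. No source used here states the annotation release. The 10 members and the wider gene lists were chosen with earlier results of these data known.

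Filters of 500 genes (minimum) and 10% mitochondrial UMIs (maximum) per cell left 9367 of 14674 barcodes in total brain (63.8%) and 10076 of 13499 in sorted brain (74.6%), with 4174574 to 12921677 and 5776800 to 10628147 kept UMIs per suffix. Doublets were called but kept, since the caller marked 7 cells (0.0747%) of total brain, a share so low that it had not worked there, and 85 (0.844%) of sorted brain. Cells were clustered jointly (2000 variable genes without 76 chaperone-list genes, 30 components, 15 neighbours, Leiden resolution 1), which gave 31 clusters. A cluster was named when at least 50% and at least 3 markers of 1 of 20 lists were raised 2-fold. It was left unnamed where the markers of another class were raised too (80% mark). By these rules 6 stayed unnamed. Classes with at least 50 cells and suffixes with at least 30 were described. UMIs were summed per class as CPM (counts on the usual fixed scale) with exact Poisson intervals, shares carry Clopper-Pearson intervals and ratios exact conditional binomial intervals. A gene was called at a 2-fold ratio of CPM plus 1, among genes of at least 10 CPM in 1 or both samples. No p-value was computed.

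All members were named. From each list and class up to 5 genes were named with at least 50 CPM, a 2-fold ratio and suffix ranges apart, and by likeness the 6 genes with the highest r of log2(CPM + 10). A gene and a marker result that these rules gave are not reported here. Gene positions are from GENCODE in GRCm38, which matched 31011 of 31053 gene identifiers; promoters are from RefSeq in GRCm38.p6. Alternatives were other cell filters, doublet removal, equal weight per suffix, other clusterings, a pseudocount of 10 CPM, totals without mitochondrial and ribosomal genes, TMM scaling and leaving out each suffix. The counting steps were tested on simulated data. Python 3.11.15, numpy 2.4.6, scipy 1.17.1, pandas 2.3.3, scanpy 1.11.5, anndata 0.12.19, scikit-learn 1.9.0, igraph 0.11.9, matplotlib 3.10.9, R 4.3.3 and edgeR 4.0.16 (TMM factors only) were used.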

Additional observations from a re-analysis of the deposited data

Results flagged for a closer look

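The summed Hspa1a and Hspa1b level differed in direction between classes of the same comparison. Its log2 ratio of total brain over sorted brain was −1.07 in choroid plexus epithelial-like cells and 1.48 in endothelial-like cells; with 1 sample per group the difference between these classes was not tested. The choroid plexus epithelial-like value rests on 89 UMIs in total brain and 725 in sorted brain.

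Barcodes removed by the cell filters carried the same pair. The 5307 removed barcodes of total brain held 519.9 CPM, and the 3423 removed barcodes of sorted brain held 256 CPM. These levels lie above those of neuron-like and choroid plexus epithelial-like cells of total brain (75.5 and 25.7 CPM) and of choroid plexus epithelial-like cells of sorted brain (54.9 CPM).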

How the results depend on the processing

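No ratio of the summed Hspa1a and Hspa1b level changed direction under the alternatives run, and of the member ratios 723 kept their side of 2-fold, 14 lost it and 33 gained it. With the looser filter (200 genes, 20% mitochondrial UMIs) the log2 ratio of the sum was −0.78 in choroid plexus epithelial-like and 1.14 in oligodendrocyte-like cells, and 1 choroid member was 2-fold higher. With the stricter filter (1000 genes, 5%) it was 1.14 in microglia-like and 0.043 in oligodendrocyte-like cells, where 4 members were 2-fold lower: Hspa8 (−2.09), Hsp90ab1 (−1.47, against 0.25), Dnajb1 (−1.44, against 0.20) and Hspe1 (−2.13). Removing called doublets gave −0.60 in choroid cells with 1 member higher. Equal weight per suffix gave 0.70 in microglia-like and 1.25 in endothelial-like cells, with 1 choroid member higher. Leiden resolution 2 gave −0.62 in choroid cells, with 1 choroid and 1 oligodendrocyte member higher. Clustering each sample alone gave 0.79 in microglia-like cells, with 1 member lower in each of microglia-like, oligodendrocyte-like and endothelial-like cells and 1 choroid member higher. A pseudocount of 10 CPM left 1 member higher in microglia-like and 1 in oligodendrocyte-like cells. Without mitochondrial and ribosomal genes the microglial value was 0.89, with 1 choroid member higher. TMM scaling gave 0.48 in microglia-like and −1.64 in choroid cells, with 1 microglial and 1 oligodendrocyte member higher, 2 choroid members and 1 endothelial member lower. Chosen after seeing the data, leaving out cluster 3 gave 0.75 in microglia-like cells, and leaving out cluster 12 left 1 oligodendrocyte member higher. Backgrounds are given for the main setting alone. Member counts under these alternatives, and with suffixes left out below, thus cannot be set against a share over all genes. The causes were not tested.

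With each suffix left out in turn, the log2 ratio of the sum ran from 0.40 to 1.31 in microglia-like, −1.72 to −0.74 in choroid plexus epithelial-like, 0.50 to 1.44 in oligodendrocyte-like and 1.18 to 1.88 in endothelial-like cells. Members higher ran from 1 to 3 in microglia-like, 0 to 2 in choroid, 1 to 2 in oligodendrocyte-like and 1 to 3 in endothelial-like cells. Members lower were 0 to 0, 1 to 1, 0 to 0 and 0 to 1 in the same order. No paired analysis was possible because each group is 1 sample and its suffixes are tied to no animal, age or genotype. Low counts limit Hspa1b in sorted oligodendrocyte-like and endothelial-like cells, and Hspb1 in oligodendrocyte-like cells.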

Other observations

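Clusters that could not be named carried the same genes. A cluster led by Rgs5, Higd1b, Ndufa4l2 and Notch3, in which all mural and all endothelial markers were raised, held 228 cells of total brain and 31 of sorted brain. Its Hspb1 level was 1161 CPM in total brain and 756 CPM in sorted brain, and its summed Hspa1a and Hspa1b level 1847 CPM and 958 CPM. Hspa1b in it was 815 CPM in total brain and 25.2 CPM in sorted brain, and Hspa5, which encodes BiP, was 330.2 CPM and 832 CPM. A cluster led by Mgp, Nov, Slc47a1 and Igfbp6, with 46 cells of total brain and 391 of sorted brain, held 867 CPM of Hspa5 in total brain and 1143 CPM in sorted brain, with 309.7 CPM and 617.5 CPM of Hspb1.

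In sorted brain a cluster of 59 cells led by Csf2, Areg and Gata3 held 2965 CPM of the constitutive Hspa8 and 641 CPM of the mitochondrial Hspe1, with 545 CPM of the inducible pair. A cluster of 145 sorted cells in which neutrophil and ependymal markers were raised together held 1205.5 CPM of Hsp90aa1 and 163 CPM of the pair. In total brain a cluster of 185 cells led by Kit and Tfap2b held 187 CPM of Hspa1a and 26.7 CPM of Hspa1b. These clusters were picked out after their values were seen.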
